A study of Mus musculus with 8 samples.

Results

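The H1f0 locus was described through 2 rows of a gene count table with 54146 rows. The H1f0 row carries the gene of the replication-independent linker histone H1.0, and the Gm49544 row carries a noncoding gene annotated on the opposite strand across the start of H1f0. Both rows were chosen by name after earlier results of these data were known, so their levels and fold changes across treatments are given below as a description, with no test. The cells were ID8-OR, which derive from ID8, a mouse ovarian cancer line, and resist olaparib, and each library came from cells kept for 72 hours in culture. The 4 groups of 2 libraries each received olaparib together with EZM8266 (the combination), EZM8266 alone, olaparib alone, or DMSO, the solvent. Olaparib inhibits the PARP enzymes, and the design text gives EZM8266 as an inhibitor of EHMT1 and EHMT2, which methylate lysine 9 of histone H3. All groups share the olaparib-resistant line, and the labels do not say how many clones it holds. For combination replicate 2 the treatment is labelled EZM8267, while its title names the combination, under which it was analysed. The labels describe the libraries as made from treatment replicates and say no more of how these were kept apart.

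Linker histones bind the nucleosome where DNA enters and leaves it and hold chromatin in a more compact state. Most are made in S phase from clustered, intronless histone genes whose messages lack a poly(A) tail. H1f0 stands alone outside those clusters, its message carries a poly(A) tail and is made outside S phase, and its protein is known to build up in cells that stop dividing or differentiate. Butyrate and other inhibitors of histone deacetylases are known to raise it. Gm49544 has no known function.

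In mm10 the H1f0 row (ENSMUSG00000096210.2) covers chr15:79028450-79030504 on the plus strand, 2055 bases in 1 exon. GENCODE places the coding sequence of 194 codons at 79028722 to 79029303, between a 5′ UTR of 272 bases and a 3′ UTR of 1201 bases. The Gm49544 row (ENSMUSG00000116262.1) is 1 exon of 2157 bases on the minus strand, chr15:79026456-79028612. The rows share 163 bases, which lie in the 5′ UTR of H1f0 and make up 7.56% of the Gm49544 row. RefSeq starts H1f0 238 bases further upstream, at 79028212, and with that start 401 bases or 18.6% of the Gm49544 row lie over H1f0. The other 1756 bases of the row lie upstream of the RefSeq start and hold the promoter window taken from that start. This window is printed because it lies inside the Gm49544 row, and its capitals mark each CG dinucleotide. The sequence is RefSeq's on build GRCm38.p6, plus strand, chr15:79027962-79028211, and ends at the base before the RefSeq start.

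H1f0 promoter: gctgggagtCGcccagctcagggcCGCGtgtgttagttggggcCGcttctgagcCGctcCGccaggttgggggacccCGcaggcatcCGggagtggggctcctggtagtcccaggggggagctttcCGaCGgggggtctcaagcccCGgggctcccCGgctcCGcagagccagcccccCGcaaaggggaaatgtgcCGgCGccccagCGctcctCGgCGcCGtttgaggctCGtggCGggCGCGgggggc

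These 250 bases were 74.4% G and C, against a median of 52.4% over 32817 mouse promoters of the same length, and held 24 CG dinucleotides, against a median of 6. Of all promoters, 88% held fewer. On either strand the window held no match to AAACACA (the H1 box, an element known from linker histone promoters), CCAAT (the CCAAT box), TATAAA (the TATA box) or GGGCGG (the GC box bound by Sp1). These letters were found in 6.25%, 33.8%, 12.4% and 32.7% of all promoters in that order, and the H1 box was found in 5 of the 11 linker histone genes, H1f2, H1f3, H1f4, H1f5 and H1f6. No match says only that these letters are not in this window. The GENCODE start of H1f0 lies 238 bases downstream of the RefSeq start, and the bases between the starts were not searched.

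**Figure D1:**
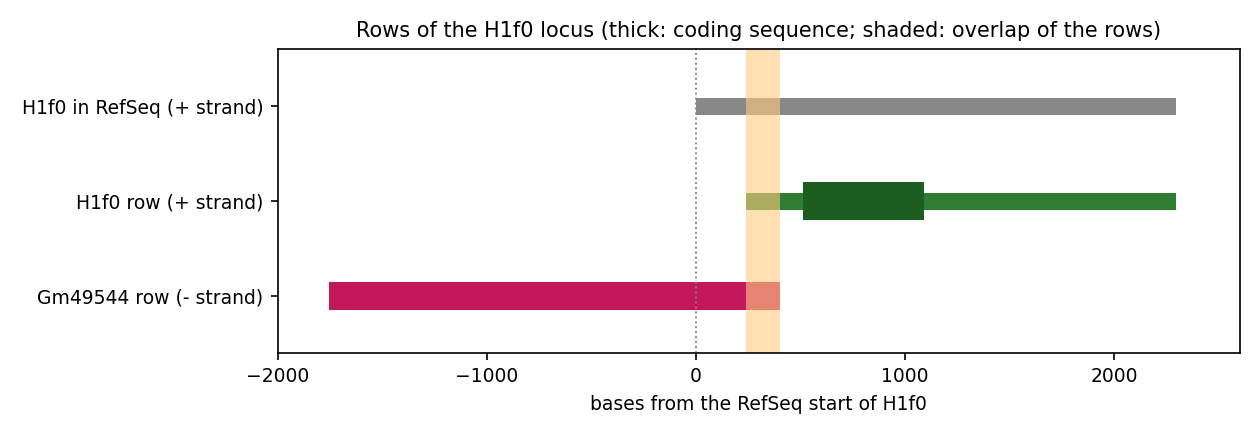
Map of both rows and of H1f0 as RefSeq gives it, in bases from the RefSeq start of H1f0 (dotted line). The Gm49544 row runs upstream from the start of H1f0, and the shaded overlap of the 2 rows is 163 bases wide.

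The libraries held 19743299 to 30329847 fragments, of which 4.54% to 5.4% were assigned to genes, and their counts summed to 973382 to 1680974. Per the file headers, the first read of a fragment had to match the strand of a gene for that row to count it. The library kit is known to mark strand with dUTP, which places the first read opposite to the transcript. The Rmrp row, which carries an abundant noncoding RNA, held 899 to 3314 counts, and the Ccdc107 row, whose exons overlap Rmrp on the other strand, held 85234 to 194016. The leakage share, which is the percent of the sum of these rows found in the Rmrp row, was 1.04% to 1.55% in the 4 libraries with EZM8266 and 1.24% to 1.68% in the 4 without. With dUTP marking the Rmrp row counts the strand of Ccdc107, so messages of that gene may be part of it. The name is thus only a label, and leakage between strands was not tested. Library numbers in the labels run from 33 to 36 with EZM8266 and from 41 to 44 without it, so an effect of that numbering and of EZM8266 cannot be told apart. Of 9 epithelial and mesothelial marker genes, the rows of 4 (Krt8, Krt18, Krt19 and Wt1) passed the filter on low counts. The summed own rows of the 9 lay at 91.4 to 97.8 CPM (the count divided by the library total, scaled up by a fixed factor) with the combination, 51.4 to 101 with EZM8266, 79.5 to 81 with olaparib and 80.5 to 106 with DMSO. Of 5 leukocyte and 3 endothelial markers no own row passed, and the own rows of Cd3e, Adgre1 and Lyz2 were at 0 in all 8 libraries. With dUTP marking, own rows count the strand opposite to the messages, so these values do not show that the messages are absent. On the strand of the messages, 1 of 2 epithelial and mesothelial rows passed (Gm36026) and 0 of 2 fibroblast rows. The only leukocyte row there was at 0 in all 8 libraries, and the endothelial markers had no such row. Of 4 fibroblast markers Col1a1 passed. The summed own rows of the fibroblast markers lay at 106 to 116 CPM with the combination, 47.3 to 157 with EZM8266, 108 to 113 with olaparib and 108 to 143 with DMSO, and their part in the results below was not tested.

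The Gm49544 row, which with this marking counts fragments on the strand of H1f0, was higher in every library with EZM8266 than in every library without it. It held 862 and 1038 counts with the combination, 1005 and 1096 with EZM8266, 752 and 765 with olaparib, and 598 and 805 with DMSO, in replicates 1 and 2. Scaled by TMM, an edgeR factor that corrects for library composition, this came to 868 and 1012 CPM with the combination, 760 and 1090 with EZM8266, 553 and 622 with olaparib, and 586 and 497 with DMSO. The lowest library with EZM8266 thus lay above the highest without it in raw counts, in CPM of the plain library total (777 to 1126 against 465 to 633) and in scaled CPM. Most of the row lies upstream of H1f0, so its fragments cannot be assigned to the H1f0 message from the table. In bulk RNA, a change in the RNA per cell and a change in the share of cells that make it cannot be told apart.

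**Figure D2:**
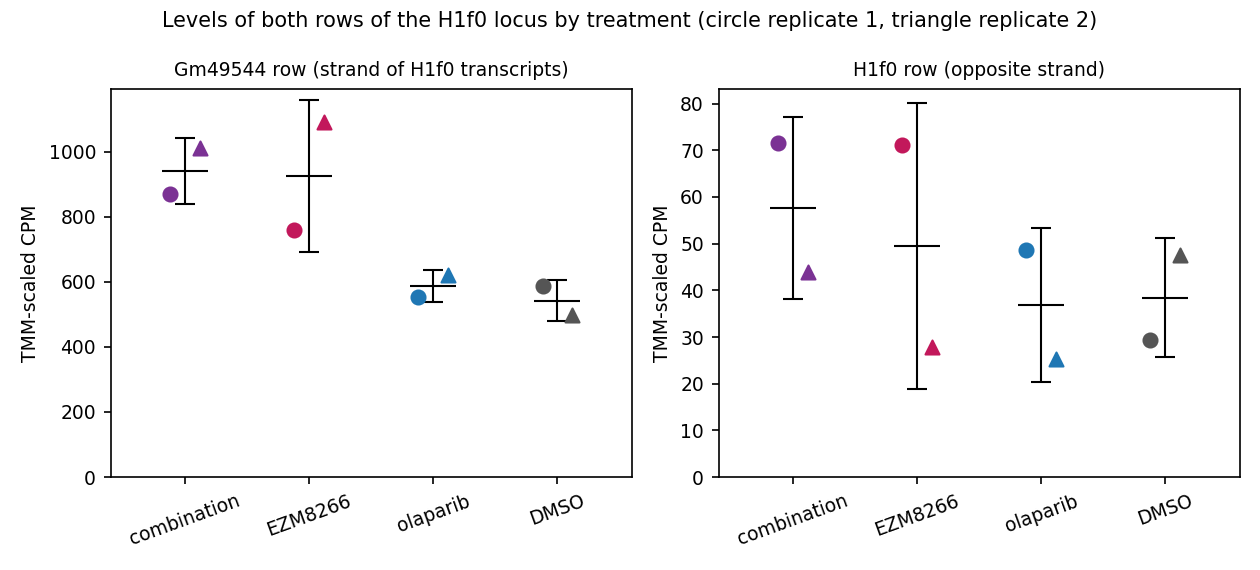
TMM-scaled CPM of the Gm49544 row (left) and the H1f0 row (right) in each library, by treatment, with the group mean and SD as bars (n = 2). The 4 libraries with EZM8266 lie between 760 and 1090 CPM in the Gm49544 row, above the 553 and 622 CPM with olaparib and the 586 and 497 CPM with DMSO, while the groups overlap in the H1f0 row.

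By group the Gm49544 row averaged 940 ± 101 CPM with the combination, 925 ± 233 with EZM8266, 588 ± 48.7 with olaparib and 541 ± 62.6 with DMSO (SD, n = 2 each). The first 2 of these means differ by less than their spread, and so do the last 2. The gap lay between the groups that had EZM8266 and those that did not. Over the 4 libraries with EZM8266 the mean was 933 ± 147 CPM, against 565 ± 53 CPM over the 4 without (SD, n = 4 each). Of the 2 rows, 1 separated these sets of libraries in the higher direction, and 3.32% of all 6379 tested rows did so. This separation is part of what made the row stand out, and nothing is read from its count.

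Fitted over all 8 libraries, EZM8266 against DMSO gave a log2 fold change of 0.77 ± 0.17 (SE) in the Gm49544 row, or 1.71-fold. Without EZM8266 replicate 2 the value was 0.49, and without EZM8266 replicate 1 it was 0.99, so this difference depends on which EZM8266 library is kept. For the combination against DMSO it was 0.80 ± 0.17, or 1.74-fold, and for the combination against olaparib 0.68 ± 0.17. For the 4 libraries with EZM8266 against the 4 without it was 0.73 ± 0.12, or 1.65-fold, and it lay between 0.59 and 0.83 with any 1 library left out.

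For olaparib the Gm49544 row differed by less than its standard error. The log2 fold change was 0.12 ± 0.17 (SE) for olaparib against DMSO, and it ranged from 0.01 to 0.25 with 1 library left out. For the combination against EZM8266 it was 0.02 ± 0.16, and its sign differed between settings, from -0.20 to 0.32. The interaction, the difference between the effect of olaparib with EZM8266 and without it, was -0.10 ± 0.23.

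**Figure D3:**
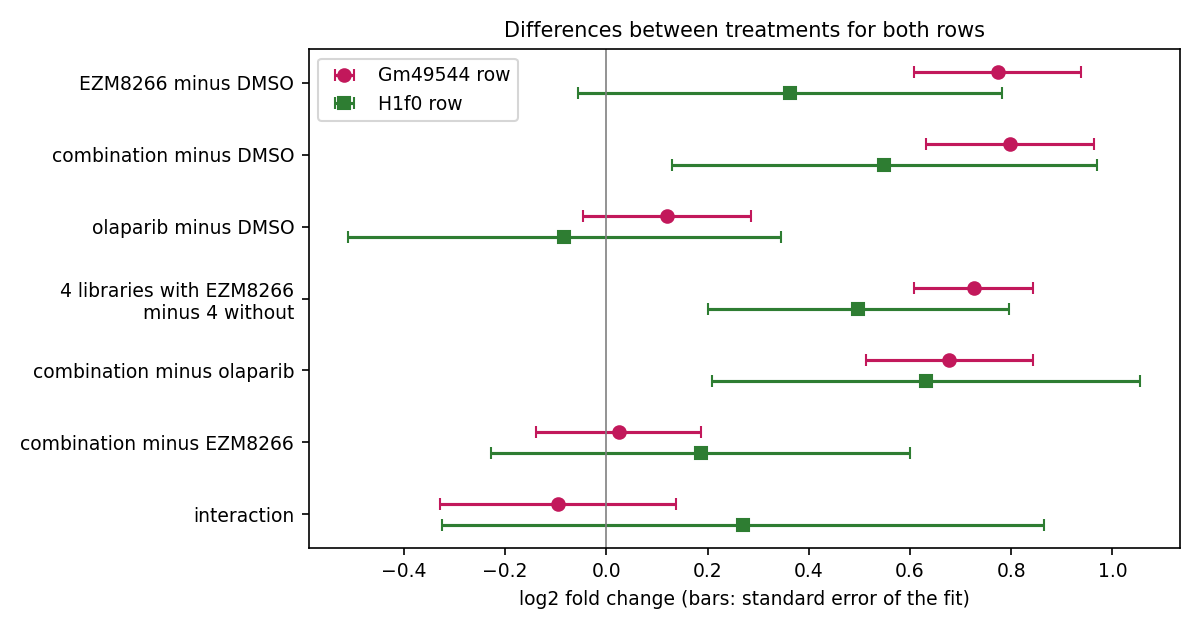
Log2 fold changes of both rows in 7 comparisons of the treatments, with the standard error of the fit as bars. The Gm49544 row lies at 0.68 to 0.80 where libraries with EZM8266 are set against libraries without it, and the bars of the H1f0 row are wider throughout.

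Counting error was set beside the distance between replicates of the Gm49544 row. On the plain library total, EZM8266 replicate 1 had 777 CPM (exact Poisson 95% interval 729 to 826) and EZM8266 replicate 2 had 1126 (1060 to 1195). The combination replicates had 781 (730 to 835) and 1066 (1002 to 1133), the olaparib replicates 465 (432 to 500) and 633 (589 to 680), and the DMSO replicates 567 (522 to 614) and 479 (446 to 513). On this scale no 2 intervals of a group overlap. On the TMM scale the olaparib intervals do, at 514 to 594 and 579 to 668, and those of the other groups do not. The intervals cover counting error only, and separate samples also differ in other ways. In each group the replicate with the lower leakage share had the higher Gm49544 level. That replicate also had the lower count total and the lower percent of assigned fragments of its group. These differences cannot be told apart here, and their part in the level was not tested. With the leakage share as a covariate, a setting chosen after the data were seen, the log2 fold change for the 4 libraries with EZM8266 against the 4 without was 0.58 ± 0.08.

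The H1f0 row counts fragments on the strand opposite to its own gene, and it was thin. It held 71 and 45 counts with the combination, 94 and 28 with EZM8266, 66 and 31 with olaparib, and 30 and 77 with DMSO. This came to 71.5 and 43.9 scaled CPM with the combination, 71.1 and 27.9 with EZM8266, 48.6 and 25.2 with olaparib, and 29.4 and 47.5 with DMSO. Within each treated group the replicates lay further apart than the group mean lay from the DMSO mean, and the groups overlapped.

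Group means of the H1f0 row were 57.7 ± 19.6 CPM with the combination, 49.5 ± 30.6 with EZM8266, 36.9 ± 16.5 with olaparib and 38.5 ± 12.8 with DMSO (SD, n = 2 each). The log2 fold change was 0.55 ± 0.42 (SE) for the combination against DMSO and 0.36 ± 0.42 for EZM8266 against DMSO. Without EZM8266 replicate 1 the value for EZM8266 was -0.52, so its direction rested on that library. For olaparib against DMSO it was -0.08 ± 0.43, and the 4 libraries with EZM8266 differed from the 4 without by 0.50 ± 0.30. That last value was 0.05 when EZM8266 replicate 1 was dropped, 0.16 when both olaparib replicate 2 and DMSO replicate 1 were dropped, and 0.87 ± 0.18 with a leakage covariate. The 4 libraries with EZM8266 spanned 27.9 to 71.5 CPM, against 25.2 to 48.6 CPM without it, so these ranges overlap. The size of the difference thus depended on the libraries kept and on the covariate.

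The share of the H1f0 row was high in the libraries whose leakage share was high. As a share of the H1f0 and Gm49544 rows together, it made up 7.61% and 4.16% with the combination, 8.55% and 2.49% with EZM8266, 8.07% and 3.89% with olaparib, and 4.78% and 8.73% with DMSO, in replicates 1 and 2. The leakage shares of the same libraries were 1.44% and 1.21% with the combination, 1.55% and 1.04% with EZM8266, 1.54% and 1.42% with olaparib, and 1.24% and 1.68% with DMSO. The 4 libraries with the highest leakage share (DMSO replicate 2, EZM8266 replicate 1, olaparib replicate 1 and combination replicate 1) were also the 4 with the highest H1f0 share, in the same order, and EZM8266 replicate 2 was lowest in both. Within each group, the replicate with the higher shares also had the higher count total and the higher percent of assigned fragments. The 2 shares are not on 1 scale, because the row of H1f0 takes fragments of the whole gene and the Gm49544 row only those that reach its own exon. Across the 8 libraries, the log2 levels of the 2 rows had a Pearson r of 0.05 and a Spearman rho of -0.12. These values share their libraries and depth.

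**Figure D4:**
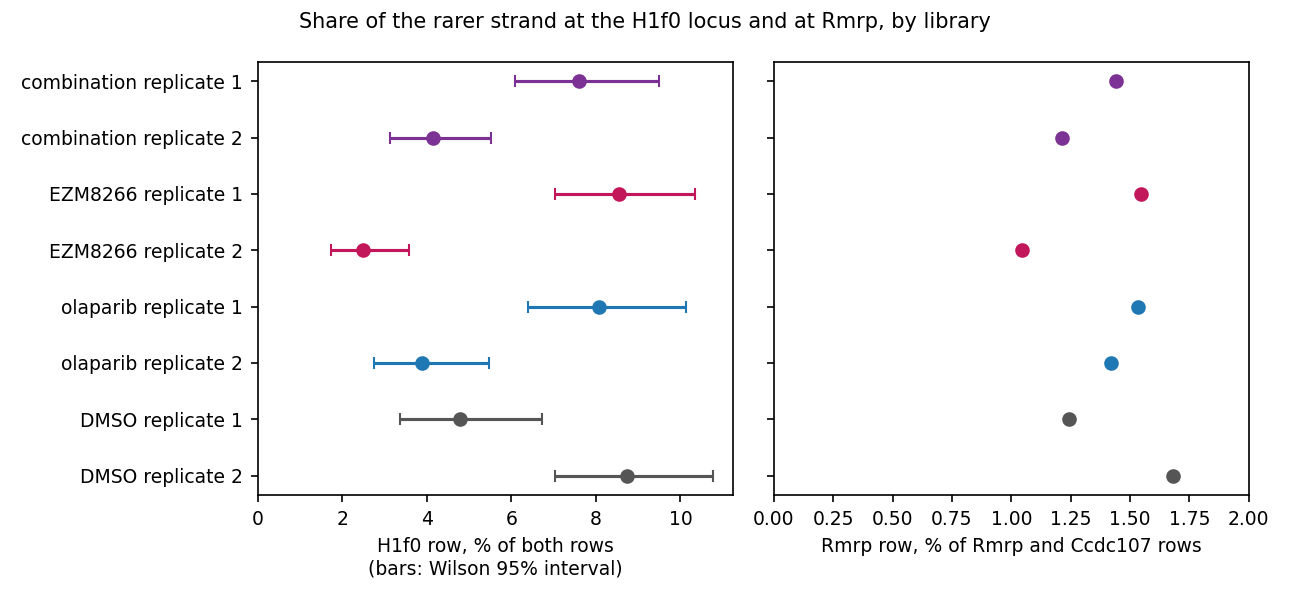
The H1f0 row as a percent of both rows of the locus, with Wilson 95% intervals (left), and the leakage share read from Rmrp and Ccdc107, also in percent (right), by library. EZM8266 replicate 2 is lowest in both at 2.49% and 1.04%, and DMSO replicate 2 is highest in both at 8.73% and 1.68%.

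Per kilobase of exon, the Gm49544 row averaged 347 CPM over the 8 libraries, above 95.6% of the tested rows, and the H1f0 row averaged 22.2 CPM, above 70.2%. Other linker histones were read in the same table for comparison. Of the 11 genes of the family, 5 besides H1f0 passed the filter on their own rows, all from the replication-dependent cluster. Their rows averaged 128 CPM per kilobase for Hist1h1c (H1.2), 86.7 for Hist1h1e (H1.4), 77 for Hist1h1a (H1.1), 54.5 for Hist1h1b (H1.5) and 12.8 for Hist1h1d (H1.3). The Hist1h1d row is 7425 bases long, against 741 for Hist1h1a. Before division by length it averaged 94.8 CPM, against 57.1 for Hist1h1a and 40.5 for Hist1h1b. These own rows count the strand opposite to the messages, so no order of the H1 genes is read from them. Only 1 other linker histone had a tested row on its strand. That is H1fx, the other replication-independent H1 of somatic cells, read through Gm5577 at 586 CPM per kilobase, and Gm5577 overlaps exons of 3 opposite-strand genes. These levels are per length of the whole row, and for the rows on the other strand the overlap with the histone gene is shorter than the row (213 bases of 2100 for Gm5577).

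None of the other linker histone rows passed the threshold (adjusted p under 0.05) in the 4 comparisons with edgeR, 0 had an unadjusted p under 0.05, and DESeq2 called 0. The share of all tested rows that passed was 0.219% for the combination against DMSO, 0.204% for EZM8266 against DMSO, 0% for olaparib against DMSO and 0.658% for the 4 libraries with EZM8266 against the 4 without, so few calls were available to any list. On the strand of H1fx (Gm5577 row) the level was 1233 and 1264 CPM with the combination, 1128 and 1464 with EZM8266, 1229 and 1232 with olaparib, and 1219 and 1081 with DMSO. The libraries with EZM8266 overlapped those without, and the log2 fold change between them was 0.10 ± 0.09 (SE, edgeR adjusted p 0.906). The corresponding value of the Gm49544 row was 0.73 ± 0.12, and the difference between the 2 genes was not tested.

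The 5 replication-dependent H1 rows all lay below 0 in all 4 comparisons. Their median log2 fold change was -0.36 for the combination against DMSO, -0.32 for EZM8266 against DMSO and -0.34 for olaparib against DMSO, where the medians of all tested rows were -0.02, -0.02 and -0.01. For the 4 libraries with EZM8266 against the 4 without it was -0.16, and 0.07 with the leakage covariate. With that covariate the medians against DMSO stayed below 0, at -0.13 for the combination, -0.15 for EZM8266 and -0.34 for olaparib. These comparisons share the DMSO libraries, and the 5 rows count the strand opposite to the histone messages, as the H1f0 row does. Hist1h1c had 224 and 170 CPM with the combination, 232 and 142 with EZM8266, 221 and 146 with olaparib, and 212.5 and 252 with DMSO.

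None of the replication-independent core histone variants passed the threshold. Of 9 genes, 5 rows on the strand of H3f3a, H2afx, H2afj, H2afy and H2afy2 were tested, and 6 own rows. H3f3a, one of the genes of histone H3.3 (Gm17275 row), had 3535 and 3402 CPM with the combination, 2964 and 4434 with EZM8266, 3212 and 3223 with olaparib, and 3065 and 2783 with DMSO. Its log2 fold change for the 4 libraries with EZM8266 against the 4 without was 0.22 ± 0.11 (SE, edgeR adjusted p 0.786). On the strand of H2afx, whose protein is phosphorylated at DNA breaks (Gm44335 row), it was -0.12 ± 0.13 (adjusted p 0.909). It was 0.09 ± 0.08 for H2afy, a macroH2A gene (Gm47071 row, adjusted p 0.906), and -0.07 ± 0.09 for H2afj (Gm44364 row, adjusted p 0.925). The Aifm2 row, on the strand of H2afy2, was thin, at a mean of 7.82 CPM against 25.1 CPM in the own row of H2afy2, and had 0.69 ± 0.40 (adjusted p 0.855). The libraries with EZM8266 and those without overlapped in all 5 rows. The Gm44335 and Gm44364 rows are only 141 bases long, so their levels are not set against those of longer rows. In the same comparison the 6 own rows, opposite to the messages, had a median of -0.365, with 2 above 0 and 4 below. With the leakage covariate it was -0.15. The own row of H2afy2 had 0.85 ± 0.29 for the combination against DMSO (edgeR adjusted p 0.718, unadjusted p under 0.05). For EZM8266 against DMSO it had -0.25 ± 0.31.

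Across the 6 gene lists, 81 rows other than the members were tested in both readings together, and edgeR called 0 in each of the 4 comparisons. Unadjusted p-values under 0.05 were found for 3 rows for the combination against DMSO, 5 for EZM8266 against DMSO, 2 for olaparib against DMSO and 7 for the 4 libraries with EZM8266 against the 4 without. Over all tested rows such p-values made up 4.89%, 5.72%, 1.83% and 6.77% in the same order, and the lists' counts were near these shares of 81. DESeq2 also called 0. The lists were of linker histones, replication-independent histone variants, chaperones and chromatin proteins that bind or compete with H1, the H3K9 methylation machinery, regulators of cell cycle exit, and proliferation genes.

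Chaperones and competitors of H1 were read mainly through their own rows, which lie on the strand opposite to their messages. Of 14 tested own rows, 13 lay below 0 for the 4 libraries with EZM8266 against the 4 without, with a median log2 fold change of -0.33, where that of all tested rows was -0.02. With the leakage share as a covariate 8 of the 14 lay below 0 and the median was -0.09. Set, a chaperone subunit, had a log2 fold change of -0.46 ± 0.19 (edgeR adjusted p 0.669). Npm1, the nucleolar chaperone nucleophosmin, had -0.23 ± 0.18 (adjusted p 0.888), and Ptma, prothymosin alpha, which binds H1, had -0.22 ± 0.22 (adjusted p 0.907). Hmgn1, chosen by the same rule, was near 0 at -0.01 ± 0.21 (adjusted p 0.997). On the strand of the messages, 3 rows were tested, and all 3 lay below 0 without and with the covariate. Their median was -0.15 without it and -0.33 with it.

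The H3K9 methylation machinery, a list that holds Ehmt2 among other genes, was split in direction. Of 9 rows on the strand of its genes, 4 lay above 0 and 5 below for the 4 libraries with EZM8266 against the 4 without, with a median of 0 to 2 decimals, and of 10 own rows 5 lay on each side. On the strand of the methyltransferase gene Suv39h1 (Gm14820 row) the log2 fold change was 0.05 ± 0.08 (edgeR adjusted p 0.941). Suv39h2, another methyltransferase gene, was read through the Dclre1c and Gm13184 rows. Dclre1c, which overlaps it by 357 of 9316 bases, had 0.04 ± 0.11 (adjusted p 0.972). Gm13184, which overlaps it by 83 bases and was thin at a mean of 8.64 CPM, had 0.295 ± 0.459 (adjusted p 0.941). On the strand of Kdm3b, a demethylase of lysine 9 (Gm26538 row), all 4 libraries with EZM8266 lay below all 4 without, with 67.5 and 72.1 CPM with the combination, 65.8 and 73.6 with EZM8266, 80.9 and 91.1 with olaparib, and 89.1 and 84 with DMSO. Of all tested rows 2.02% did so, and the difference of -0.31 ± 0.12 was not past the threshold (adjusted p 0.616). Ehmt2 was tested on its own row, opposite to its messages and thin at a mean of 12.4 CPM. There the same comparison gave -0.64 ± 0.33 (adjusted p 0.80). Against DMSO the Ehmt2 row had -1.40 ± 0.48 for EZM8266 (edgeR adjusted p 0.739, unadjusted p under 0.05). For the combination it had -0.36 ± 0.44 (adjusted p 0.990).

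Genes of cell cycle exit are of interest beside H1f0 because its protein is known to rise when cells stop dividing. On their strand 5 rows were tested, on 4 of the 22 listed genes. All 5 lay above 0 for the 4 libraries with EZM8266 against the 4 without, with a median log2 fold change of 0.18. Against DMSO the median was 0.21 for the combination (5 of 5 above 0), 0.26 for EZM8266 (5 of 5) and 0.29 for olaparib alone (4 of 5), so values above 0 were not limited to EZM8266. These comparisons share the DMSO libraries. Gas1, a gene known to be expressed in growth-arrested fibroblasts (Gm48488 row), had 115 and 116 CPM with the combination, 114 and 113 with EZM8266, 81.7 and 84.6 with olaparib, and 92.1 and 97 with DMSO. All 4 libraries with EZM8266 lay above all 4 without, as in 3.32% of all tested rows. The log2 fold change of 0.37 ± 0.11 was not past the threshold (edgeR adjusted p 0.267). Rbl2, the pocket protein p130, was read through 2 rows (Gm45464 and Aktip, 0.18 ± 0.11 and 0.11 ± 0.11), which are not separate genes. Gm45464 had 139 and 130 CPM with the combination, 172.5 and 168 with EZM8266, 143.5 and 162 with olaparib, and 127 and 106 with DMSO. Against DMSO its log2 fold change was 0.55 ± 0.15 for EZM8266 (edgeR adjusted p 0.358) and 0.39 ± 0.15 for olaparib (adjusted p 0.999), both with an unadjusted p under 0.05, and 0.21 ± 0.15 for the combination (adjusted p 0.982). Of the 3 tested own rows of this list, 2 lay above 0 and 1 below for the 4 libraries with EZM8266 against the 4 without. The row below 0 was that of Rbl2, at -0.16 ± 0.21.

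Proliferation genes were split in direction. Their 6 rows on the strand of the messages had a median log2 fold change of 0.02 for the 4 libraries with EZM8266 against the 4 without, with 4 above 0 and 2 below. With the leakage covariate 5 of the 6 lay below 0 and the median was -0.07. Of their 14 tested own rows 10 lay below 0, with a median of -0.05, and 7 did with the covariate. Against DMSO the medians of the own rows were -0.10 for the combination, -0.24 for EZM8266 and -0.19 for olaparib, with 11, 11 and 10 of the 14 below 0. On the strand of Ccnd1, the G1 cyclin D1 (LTO1 row), all 4 libraries with EZM8266 lay above all 4 without, at 3031 and 2892 CPM with the combination, 2917 and 3168 with EZM8266, 2576 and 2624 with olaparib, and 2517 and 2310 with DMSO. Of all tested rows 3.32% did so, and the difference of 0.26 ± 0.08 was not past the threshold (edgeR adjusted p 0.284). On the strand of Ccna2, the S phase and G2 cyclin (Exosc9 row), the log2 fold change was 0.07 ± 0.10 (adjusted p 0.936). Mcm7, a subunit of the replicative helicase, was read through 2 rows that differed in sign. Ap4m1, which overlaps it by 321 bases, had 0.03 ± 0.09 (adjusted p 0.971) with overlapping libraries. In Cops6, which overlaps it by 64 bases, all 4 libraries with EZM8266 lay below all 4 without, as in 2.02% of all tested rows. The log2 fold change of the Cops6 row was -0.15 ± 0.08 (adjusted p 0.833).

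Of the rows near H1f0 on chromosome 15, none passed the threshold. Within 100000 bases of the gene the table holds 16 other rows, and 7 passed the filter. None was called in the 4 comparisons with edgeR or DESeq2, where the edgeR unadjusted p was under 0.05 for 1 row with EZM8266 against DMSO, 1 with olaparib against DMSO and 0 in the others. The best covered were 1700088E04Rik, on the strand of Polr2f and Micall1, at 393 CPM with a log2 fold change of 0.07 ± 0.09 for the 4 libraries with EZM8266 against the 4 without, and Gm10865, on the strand of Triobp, at 210 CPM with -0.04 ± 0.09. Lgals1, the gene of galectin 1, had -0.36 ± 0.21 (edgeR adjusted p 0.855) on its own row. The 2 Gcat rows, which begin 370 and 397 bases downstream of H1f0, held 0 to 7 counts, and Gm17753, the nearest row upstream, held 0 to 2.

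The rows whose levels over the 8 libraries were most like those of Gm49544 were sought among 3185 rows with a mean of at least 20 CPM. The first was Gm26809, a noncoding row on chromosome 6 on the strand of Gm20186 (Pearson r 0.98). It was followed by Cd72 on the strand of Tesk1, a protein kinase gene (0.97), Gm28294 on the strand of Ptprn (0.96), and E130310I04Rik on the strand of Mylk, the gene of myosin light chain kinase (0.96). Gm26809 had 1744 and 1813 CPM with the combination, 1588 and 1963 with EZM8266, 976 and 1167 with olaparib, and 1090 and 995 with DMSO. Like the Gm49544 row, it was higher in all libraries with EZM8266, and in each group its higher replicate was the same as that of Gm49544. The rows most like the H1f0 row were Itga3 (0.93), Sf3b2 (0.93), Eif3d (0.92), Mtbp (0.90) and Tsc22d1 (0.89). These values share libraries and depth and are given with no test.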

How the data were processed

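RNA of 8 libraries was sequenced as 150-base pairs after ribosomal RNA depletion and a KAPA mRNA HyperPrep preparation, per the labels' protocols. Reads were aligned with HISAT2 2.1.0 to mm10, per the submitters' processing notes. The deposited table holds raw counts of fragments per gene, made with featureCounts 1.6.2 on GENCODE M18 with strand setting 1 and with fragments counted for every overlapping gene, per the file headers. Exon lengths (in bases, another deposited column) were used for CPM per kilobase. Names came from GENCODE M21 on the same assembly and matched 54079 of 54146 rows.

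Rows were kept by edgeR's filterByExpr (minimum count 10), which left 6379. All 8 libraries entered 1 edgeR 4.0.16 quasi-likelihood fit with TMM factors, and p-values were adjusted by Benjamini-Hochberg over all tested rows (R 4.3.3). DESeq2 1.42.0 was an alternative. The fit was tested on simulated data with 200 of 6379 rows changed between EZM8266 and DMSO. It recovered 34% of the 2-fold and 78% of the 4-fold changes, with 8 false calls among 120. A row that did not pass the threshold may thus still differ. A row on the other strand stood for a listed gene where exons overlapped by at least 50 bases. The members and gene lists were chosen with earlier results of these data known. Named were both member rows, up to 4 rows with the highest mean CPM in each list and reading, tested rows within 100000 bases of H1f0, and the 5 rows most like each member, of which 1 is not reported here. Hist1h1b and Gm13184 were added after their values were seen, to complete a family and the rows read for a gene. Intervals cover counting error only, and a count of 3 corresponds to 1.79 to 3.08 CPM by library. Same-numbered libraries did not correlate above 0.1 in every pair of groups (DMSO ran the other way), so replicate numbers were not taken to pair the samples. Alternatives were other scalings, filters and designs, and each library left out.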

Additional observations from a re-analysis of the deposited data

How the results depend on the processing

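The Gm49544 row kept its direction in all settings run for EZM8266, the combination and olaparib against DMSO (18 of 18 each) and for the 4 libraries with EZM8266 against the 4 without (17 of 17, from 0.58 to 0.83). The H1f0 row kept its direction in 17 of 18 settings for EZM8266 against DMSO, 18 of 18 for the combination, 14 of 18 for olaparib and 17 of 17 for the 4 libraries with EZM8266 against the 4 without. With 1 library left out, log2 fold changes of the Gm49544 row against DMSO were 0.49 to 0.99 for EZM8266, 0.69 to 0.935 for the combination and 0.01 to 0.25 for olaparib, and 0.59 to 0.83 for the 4 libraries with EZM8266. Those of the H1f0 row were -0.52 to 0.85, 0.17 to 0.97, -0.64 to 0.34 and 0.05 to 0.78 in the same order of comparisons. Counts of rows called over the whole table moved more, and the cause was not tested. For EZM8266 against DMSO the count was 13, against 42 with no filter on low counts, 3 with only the groups compared, 3 without DMSO replicate 1 and olaparib replicate 2, 46 with the leakage covariate and 5 to 24 with 1 library left out. For the combination against DMSO it was 14, against 22 with plain library totals, 45 with no filter, 5 without those 2 libraries, 59 with the covariate and 6 to 19 with 1 library left out. For olaparib against DMSO it was 0 (117 rows had an unadjusted p under 0.05 with edgeR, and DESeq2 called 0), against 8 with no filter, 1 without those 2 libraries and 0 to 1 with 1 library left out. For the 4 libraries with EZM8266 against the 4 without it was 42, against 83 with no filter, 16 without those 2 libraries, 85 with the covariate and 18 to 66 with 1 library left out. Of the listed rows, 0 were called, against 1 (Gm17275) without EZM8266 replicate 1, for EZM8266 against DMSO and for the 4 libraries with EZM8266, and 1 (Gm44335) with the covariate in the second of these. Spearman's rho kept 3 of the 5 rows most like Gm49544. With the replicate block the counts were 10, 15, 0 and 39, the Gm49544 row had 0.72 for the 4 libraries with EZM8266 against the 4 without, and the H1f0 row had 0.43. Same-numbered libraries correlated at 0.22 to 0.29 among the 3 treated groups and at -0.32 to -0.15 with DMSO. With DMSO numbers crossed, a replicate block chosen after the data were seen, the counts were 84, 73, 1 and 133, and 1 listed row (Gm45464) was called for EZM8266 against DMSO. The covariate was also chosen after the data were seen.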
